A study of Anas platyrhynchos with 2 samples.

Results

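Head-to-head gene pairs are neighbours whose 5′ ends face each other, so that transcription runs away from the shared gap on both sides. In ducks (Anas platyrhynchos) of the Fujian Longyan Shan-ma breed, 315 such pairs were found with 1 to 1000 bp between the gene spans, among 11309 adjacent gene pairs in the count table. A pair was taken on an autosome whose last gene ends at 10 Mb or beyond, with the left gene on the minus strand, the right gene on the plus strand, and a right start minus left end within that range. The 315 pairs hold 630 genes, which is 7.05% of the 8941 genes on the 23 autosomes of that size. The choice used position and strand and no expression value.

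Such pairs are a known arrangement in vertebrate genomes. The stretch between facing starts can act as a bidirectional promoter, from which RNA polymerase is loaded in both directions, and it often lies in a CpG island. Known cases in vertebrates are HSPE1 and HSPD1, which encode the mitochondrial chaperonins, COL4A1 and COL4A2, which encode chains of basement membrane collagen, and PPAT and PAICS, which encode enzymes of purine synthesis and were described as a facing pair in chicken. The gene IDs of the duck table matched 0 of 26024 genes in a RefSeq table of the Pekin duck. Members are therefore given by position or ID on the study's own assembly, and no gene is named.

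RNA-seq was performed on 2 libraries, each of organs combined by the submitters and each without a replicate. Library B carries a label that names skin, brain, eye, ovary, muscle, heart, kidney, lung and spleen. Library A carries a label that names liver, pancreas, stomach, intestine and blood. The series text speaks instead of 1 adult female and 1 adult male bird whose RNA was combined in equal amounts, and the labels give neither the sex of the birds nor a testis, so values are given by library and not by organ. No organ marker could be checked by name. Because organs were combined, fewer cells of a type and less RNA per cell cannot be told apart.

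Library B held 41792653 counted reads and library A 20047449. Members took 4.67% of library B's reads and 4.69% of library A's. A member had a median of 1682.5 reads in library B, from 18 to 73144, and a median of 804.5 reads in library A, from 2 to 32549. No member was without reads in either library. Such genes were rare in the whole table as well, with 38 of 11383 in library B and 71 in library A. On these autosomes 15 of the 8941 genes had none in both, too few to set members apart. In library B 97.3% of members had at least 100 reads, against 94.5% of all genes on these autosomes. In library A these shares were 93.5% and 89.3%. Library totals refer to the genes in the table, which hold 62.2% of the ID numbers of the annotation. IDs were consecutive in 315 of 315 pairs, so no ID number was skipped between partners. The same held for all other neighbours with gaps of 1 to 1000 bp on these autosomes. With 1 library per label there is no test, and spread is given as quartiles over genes or pairs.

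Head-to-head gaps were short within the limit of 1000 bp. The median gap was 184 bp, with quartiles of 89.5 and 374.5 bp, and it ran from 3 to 994 bp. In 92 pairs (29.2%) the gap was at most 100 bp, and in 166 pairs (52.7%) at most 200 bp. Convergent pairs are neighbours whose 3′ ends face each other, and 328 of them had a gap of 1 to 1000 bp on the same autosomes. Their median gap was 449 bp, and 22.6% lay at 200 bp or less. The 470 same-strand pairs in that range had a median gap of 457.5 bp, with 18.5% at 200 bp or less.

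The number of divergent neighbours fell away well before the limit. There were 92 pairs at 1 to 100 bp, 74 above 100 and up to 200 bp, 25 above 400 and up to 500 bp and 8 above 900 and up to 1000 bp. Beyond the limit, 7 divergent pairs lay above 1000 and up to 1100 bp. Convergent pairs numbered 30 at 1 to 100 bp and 33 above 900 and up to 1000 bp, and same-strand pairs 28 and 38. Among divergent neighbours at any distance on these autosomes, 14.6% of 2152 were within 1000 bp, against 15.3% of 2145 convergent and 10.2% of 4621 same-strand neighbours. The table holds 0 overlapping neighbours and 62.2% of the annotation's ID numbers. These shares therefore refer to neighbours in the table, between which genes may be missing.

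**Figure D1:**
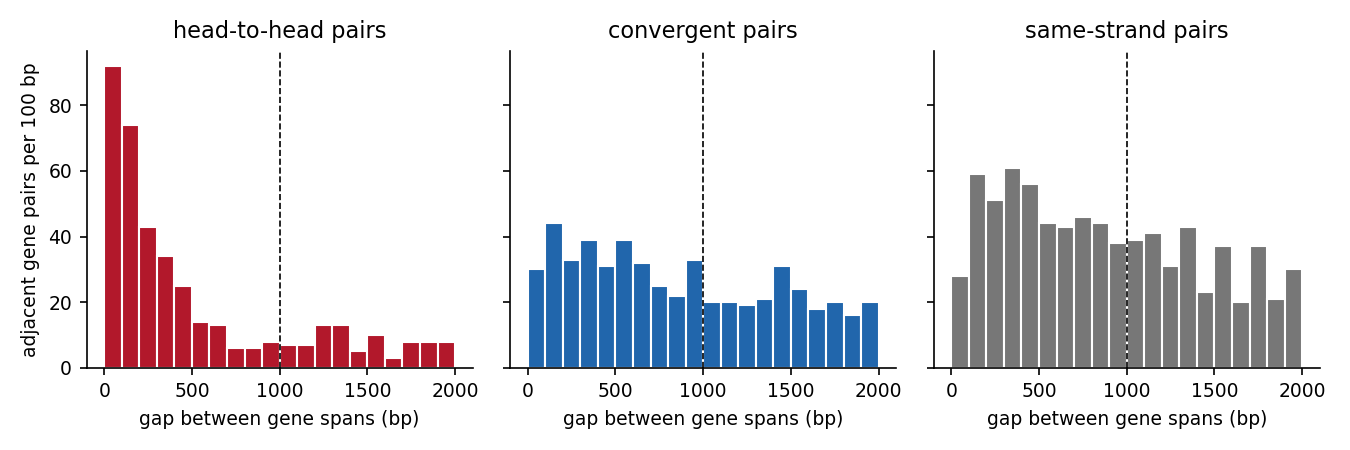
Adjacent gene pairs (y axis) per 100 bp of gap between gene spans (x axis, bp) for head-to-head, convergent and same-strand neighbours on autosomes of 10 Mb or more; the dashed line marks 1000 bp. Head-to-head pairs are most numerous at 1 to 100 bp (92 pairs), while convergent and same-strand pairs number 30 and 28 there.

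Member genes had a somewhat shorter first exon at the median than genes of other close pairs, while their first intron lay between those of the other orientations. The first exon had a median of 161.5 bp in head-to-head genes, against 183 bp in genes of convergent pairs, 186 bp in genes of same-strand pairs and 205 bp in all genes on these autosomes. It was shortest at the narrowest gaps, with medians of 145 bp at 1 to 100 bp, 158 bp above 100 and up to 200 bp, 171.5 bp above 200 and up to 500 bp and 196 bp above 500 and up to 1000 bp. At gaps above 200 and up to 500 bp convergent genes had 191.5 bp and same-strand genes 165.5 bp, so members were not shorter than same-strand genes there. At gaps above 500 and up to 1000 bp convergent genes had 174 bp and same-strand genes 196 bp, so members were shorter than neither. The first intron had a median of 1024 bp in head-to-head genes, against 1425.5 bp in convergent, 826 bp in same-strand and 2115.5 bp in all genes. Exon lengths are those of the submitters' annotation, and a start that was annotated too short or too long changes both the gap and the first exon.

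In exon length, exon number and span members resembled the genes of other close pairs. Median exon length was 2932 bp in head-to-head genes, 3037.5 bp in convergent, 2865 bp in same-strand and 3444 bp in all genes. The median exon number was 9 in head-to-head genes, 10 in convergent and in same-strand genes, and 9 in all genes. Median genomic span was 12.5 kb in head-to-head genes, 11.5 kb in convergent, 10.1 kb in same-strand and 19.3 kb in all genes. Partners showed little likeness in structure, with Spearman's rho of 0.14 for exon length, -0.05 for exon number and 0.28 for span across 315 pairs. These values were 0.18, 0.06 and 0.31 in convergent pairs and 0.23, 0.10 and 0.22 in same-strand pairs within 1000 bp. Across all adjacent pairs on these autosomes they were 0.11, 0.05 and 0.22.

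Head-to-head genes were expressed at moderate levels in both libraries. Level is given as RPKM, that is reads per kilobase of exon scaled to library depth, averaged over the libraries unless a library is named. The median level of members was 12.9 RPKM, with quartiles of 5.40 and 27.6, against 9.56 RPKM (3.83 and 22.5) for all genes on these autosomes. It was 12.7 RPKM in library B and 13.1 RPKM in library A. Genes at 10 RPKM or more made up 58.1% of members and 48.4% of all genes. Genes under 1 RPKM made up 2.22% of members, that is 14 genes, and 5.94% of all genes.

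Very abundant genes were about as frequent among members as elsewhere. Genes at 100 RPKM or more made up 5.87% of members and 5.61% of all genes. Relative to genes in the same class of exon length and exon number, each split at its quartiles, the median member stood at 1.17 times the median of its class. Genes of convergent pairs stood at 0.989 times and genes of same-strand pairs at 1.21 times the median of their class. The right partners had a median of 12.2 RPKM and the left partners one of 13.7 RPKM. The right partner was the stronger in 154 of 315 pairs (48.9%).

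A few genes held much of the members' reads. The 10 members with the most reads took 19.0% of member reads in library B and 18.9% in library A. Of these 10 genes 9 were in both sets. The 50 with the most reads took 41.7% in each library, with 48 shared.

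The partners of a head-to-head pair usually differed severalfold. The stronger partner had a median of 23.8 RPKM (quartiles 12.3 and 47.3), and the weaker partner one of 6.56 RPKM (3.07 and 13.5). The median ratio of stronger over weaker, with 0.1 RPKM added to each, was 3.35-fold (1.66 and 7.17). In 103 pairs (32.7%) the partners were less than 2-fold apart, and in 60 pairs (19.0%) at least 10-fold. Across all 8918 adjacent pairs on these autosomes, at any gap and orientation, the median ratio was 3.40-fold, with 30.1% under 2-fold and 21.0% at 10-fold or more.

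Both partners were at 10 RPKM or more in 113 pairs (35.9%), and both were below 10 RPKM in 62 (19.7%). In 140 pairs (44.4%) the stronger was above that level and the weaker below it. Both partners reached 10 RPKM in 39.8% of same-strand and 25.9% of convergent pairs within 1000 bp, and in 25.1% of all adjacent pairs. No head-to-head pair had both partners under 1 RPKM, and the least expressed stronger partner had 1.95 RPKM. Pairs with both partners under 1 RPKM were rare elsewhere too, with 0 of 470 same-strand and 2 of 328 convergent pairs within 1000 bp. Their share among all adjacent pairs was 0.830%.

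Across pairs, the levels of partners were nearly unrelated. Spearman's rho between them was 0.05 over the 315 pairs by mean level, 0.05 in library B and 0.04 in library A. Ordered by the stronger partner and split into 4 groups of nearly equal size, the pairs had weaker partners with medians of 3.24, 7.91, 11.6 and 12.3 RPKM, and ratios of 2.02-, 2.42-, 2.94- and 9.75-fold. The weaker partner cannot exceed the stronger, which caps it in every group and most tightly in the lowest. These medians and ratios therefore do not show that partner levels are related. After each gene was set against its class of exon length and number, Spearman's rho was 0.03. By mean level again, rho was -0.05 among pairs at 1 to 100 bp, where partners lie closest. Among the 47 pairs above 500 and up to 1000 bp it was 0.18. In convergent pairs within 1000 bp it was 0.01 by mean level and in same-strand pairs 0.19. In the pairs matched on gap and structure, described further on, it was -0.02 and 0.24. Set against their classes, convergent and same-strand pairs had -0.009 and 0.15, and the matched pairs -0.03 and 0.17. Partners share library and depth, genes are not replicates, and no p-value is given.

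**Figure D2:**
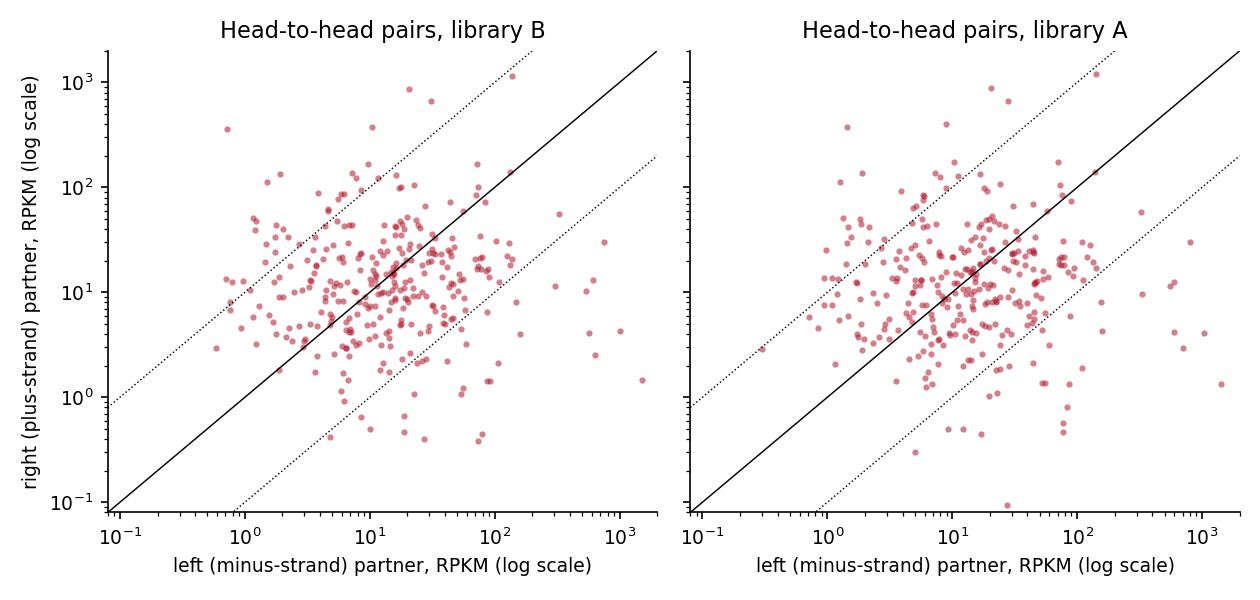
Level of the right (plus-strand) partner against that of the left (minus-strand) partner in 315 head-to-head pairs, in RPKM on log axes, in library B and library A; the solid line marks equal levels and dotted lines 10-fold differences. Points spread widely around the line of equality in both libraries, and 60 pairs are at least 10-fold apart by their mean level.

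The pair with the highest weaker partner lies on chromosome 7, with 376 bp between the spans at 27176136 to 27190077 and 27190453 to 27194186. Its right gene, with 6 exons and 761 bp of exon, had 1149 RPKM in library B and 1194 RPKM in library A. Its left gene, with 19 exons and 2657 bp of exon, had 138 RPKM in library B and 141 RPKM in library A. The right partner was thus the stronger in both libraries, by 8.31-fold in library B and 8.46-fold in library A. Only 1 other head-to-head pair had both partners at 100 RPKM or more. It was noticed after its values were seen and lies on chromosome 2, with a gap of 814 bp between 135049592 and 135050406. Its right partner had 139 RPKM in library B and 140 RPKM in library A, while its left partner had 134 RPKM in library B and 139 RPKM in library A, so these partners were nearly equal.

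The strongest member belongs to the pair with the widest ratio. On chromosome 11, with a gap of 600 bp, the left gene at 12899110 to 12902448, with 4 exons and 1146 bp of exon, had 1522 RPKM in library B and 1422 RPKM in library A. The right gene at 12903048 to 12908794, with 17 exons and 2643 bp of exon, had 1.47 RPKM in library B and 1.34 RPKM in library A. These rest on 163 and 71 reads for the right gene, in library B and library A, against 73144 and 32549 reads for the left gene. The ratio of stronger over weaker was 976-fold. The counts took no account of strand, and how many of the right gene's reads came from outside its own transcripts was not tested.

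Ratios of 100-fold or more were found in 7 head-to-head pairs (2.22%), and in all 7 the stronger partner had the shorter exon length. Their gaps ran from 24 to 600 bp, the stronger partners from 75.4 to 1472 RPKM and the weaker from 0.427 to 4.15 RPKM. Such ratios occurred in 12 convergent pairs (3.66%) and 8 same-strand pairs (1.70%), with the shorter partner the stronger in 11 and 7 of them. Over all 315 head-to-head pairs the shorter partner was the stronger in 200 (63.5%), against 61.9% of convergent and 60.2% of same-strand pairs. RPKM divides by exon length, which bears on this share in each orientation.

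Other pairs were evenly balanced. On chromosome 21, with a gap of 88 bp, the right gene at 18361678 to 18374946 had 15.0 RPKM in library B and 15.4 RPKM in library A. The left gene at 18339868 to 18361590 had 15.5 RPKM in library B and 14.4 RPKM in library A. Their ratio of 1.02-fold was the smallest among pairs with at least 100 reads in each partner over both libraries, and the stronger partner was not the same gene in the libraries.

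The narrowest gaps held both even and uneven pairs. The smallest gap, a right start 3 bp after the left end, occurred in 2 pairs. In the first, on chromosome 2, the right gene at 11403927 to 11432139 had 15.1 RPKM in library B and 17.1 RPKM in library A. Its left partner at 11276684 to 11403924 had 15.5 RPKM in library B and 14.8 RPKM in library A. In the second, on chromosome 7, the right gene starting at 20735562 had 24.3 RPKM in library B and 25.1 RPKM in library A. Its left partner ending at 20735559 had 1.75 RPKM in library B and 0.976 RPKM in library A, and so the stronger partner was 16.9-fold above the weaker. The 8 pairs with gaps up to 20 bp had ratios from 1.06-fold to 16.9-fold, with a median of 6.40-fold.

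In 14 head-to-head pairs (4.44%) the weaker partner was under 1 RPKM. This share was 10.9% over all 8918 adjacent pairs on these autosomes and 10.5% over divergent pairs at any gap. The stronger partners of the 14 pairs ran from 2.92 to 78.1 RPKM, with a median of 12.1 RPKM. The weakest member, with 3 exons on chromosome 19 starting at 1400606, had 0.402 RPKM in library B and 0.0936 RPKM in library A, from 18 and 2 reads. Its partner across 510 bp had 27.0 RPKM in library B and 27.6 RPKM in library A.

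At the limit of 1000 bp the values overlapped widely. The 8 pairs above 900 and up to 1000 bp had stronger partners from 4.89 to 49.2 RPKM and weaker partners from 1.33 to 12.5 RPKM. The 7 divergent pairs above 1000 and up to 1100 bp had stronger partners from 0.716 to 632 RPKM and weaker partners from 0.643 to 9.44 RPKM. The last pair inside, on chromosome 12 with a gap of 994 bp, had 49.2 RPKM in its right gene and 1.52 RPKM in its left gene. A pair just outside, on chromosome 10 with a gap of 1002 bp, had 16.5 and 7.12 RPKM.

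Against close pairs of other orientation, head-to-head genes stood between convergent and same-strand genes in level. Each head-to-head pair was set beside the convergent and the same-strand pair nearest to it in exon length and exon number of both partners and in gap. After matching, the median gene level was 12.9 RPKM in head-to-head pairs, 12.0 RPKM in convergent and 15.2 RPKM in same-strand pairs. Without matching, the convergent and same-strand medians were 10.2 and 13.5 RPKM. The log2 difference of the medians to convergent pairs was 0.11 after matching, 0.33 without it, 0.21 on all autosomes and 0.027 on autosomes of 30 Mb or more. That to same-strand pairs was -0.23 after matching, -0.059 without it and -0.031 relative to genes of like exon length and number. These shifts are small beside the spread over genes, whose quartiles were 5.40 and 27.6 RPKM in head-to-head pairs and 6.67 and 30.1 RPKM in matched same-strand pairs.

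Both partners followed that order. The stronger partner had a median of 23.8 RPKM in head-to-head pairs, 21.1 RPKM in matched convergent and 27.0 RPKM in matched same-strand pairs. The weaker partner had 6.56 RPKM in head-to-head pairs, 5.97 RPKM in matched convergent and 7.84 RPKM in matched same-strand pairs. Taken pair by pair, the weaker head-to-head partner was above that of its convergent match in 169 of 315 pairs (53.7%) and above that of its same-strand match in 140 (44.4%). For the stronger partner these numbers were 166 (52.7%) and 146 (46.3%).

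Matching reused pairs, because close gaps are rarer in the other orientations. The 315 matches came from 155 distinct convergent pairs, of which 1 was used 12 times, and from 187 same-strand pairs, of which 1 was used 7 times. The median gap after matching was 184 bp in head-to-head, 247 bp in convergent and 211 bp in same-strand pairs, so gaps were brought close but not made equal. The longer partner's median exon length was 4183 bp in head-to-head pairs, 3995 bp in convergent and 3970 bp in same-strand matches, and that of the shorter 2088, 2087 and 2047 bp. Pairs of different orientation also share genes, since 118 members (18.7%) had a 3′ neighbour within 1000 bp, 69 of them in a convergent and 49 in a same-strand pair.

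The ratio of stronger over weaker overlapped widely between orientations. It was 3.35-fold in head-to-head, 2.93-fold in matched convergent and 3.13-fold in matched same-strand pairs. Pair by pair, it was higher than in the convergent match in 157 of 315 pairs (49.8%) and higher than in the same-strand match in 154 (48.9%). Without matching it was 3.27-fold in convergent and 2.89-fold in same-strand pairs. The log2 difference to convergent pairs, 0.20, turned to -0.07 when each gene was set against its class of exon length and number, and to -0.09 when all autosomes were used. The log2 difference to same-strand pairs, 0.10, turned to -0.03 with 1 RPKM added in place of 0.1.

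The weaker partner was under 1 RPKM in 4.44% of head-to-head pairs, 12.1% of matched convergent and 5.40% of matched same-strand pairs, a difference that was not tested. Of the 38 such convergent matches, 12 were 1 reused pair, with 688 and 0.571 RPKM. Without it the convergent share was 8.58% and the difference -4.14 percentage points. With each match counted once the shares were 9.68% in convergent and 7.49% in same-strand pairs, and without matching 9.45% and 7.23%. On autosomes of 30 Mb or more the difference to matched convergent pairs was -1.61 percentage points, against -7.62 on all autosomes of 10 Mb or more. There the difference to matched same-strand pairs was 2.15 percentage points, against -0.95.

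**Figure D3:**
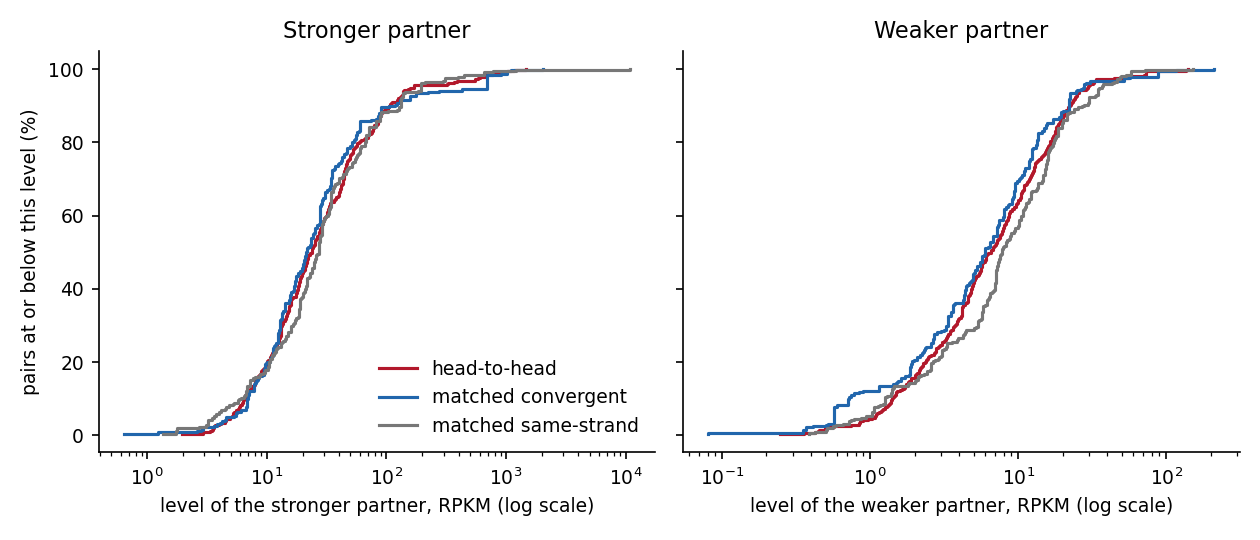
Share of pairs (y axis, percent) at or below each level (x axis, RPKM on a log scale) for the stronger and the weaker partner of 315 head-to-head pairs and of their matched convergent and same-strand pairs. The curves lie close together, with medians of the weaker partner at 6.56 RPKM in head-to-head, 5.97 in convergent and 7.84 in same-strand pairs; steps in the matched curves come from pairs used several times.

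Median levels varied with the gap, within overlapping quartiles. Head-to-head genes had a median of 13.1 RPKM at gaps of 1 to 100 bp, 14.5 RPKM above 100 and up to 200 bp, 11.8 RPKM above 200 and up to 500 bp and 11.1 RPKM above 500 and up to 1000 bp. Divergent genes farther apart had 10.4 RPKM above 1000 and up to 2000 bp and 8.01 RPKM beyond 50000 bp. Convergent genes had 7.21 RPKM at 1 to 100 bp, from 30 pairs, and 11.9 RPKM above 200 and up to 500 bp. Same-strand genes had 15.9 RPKM at 1 to 100 bp, from 28 pairs, and 12.4 RPKM above 500 and up to 1000 bp.

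Head-to-head and convergent genes were thus farthest apart at the narrowest gaps. At 1 to 100 bp the head-to-head genes stood at 1.24 times and the convergent genes at 0.823 times the median of their class of exon length and number. Same-strand genes stood higher than both there, at 1.32 times. Above 500 and up to 1000 bp the values were 1.11 in head-to-head, 0.996 in convergent and 1.17 in same-strand genes. The weaker head-to-head partner had a median of 6.41 RPKM at 1 to 100 bp, 7.88 RPKM above 100 and up to 200 bp, 6.05 RPKM above 200 and up to 500 bp and 5.63 RPKM above 500 and up to 1000 bp. The counting set aside reads that overlap more than 1 gene and ignored strand, and the part of either in levels at the narrowest gaps was not tested.

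**Figure D4:**
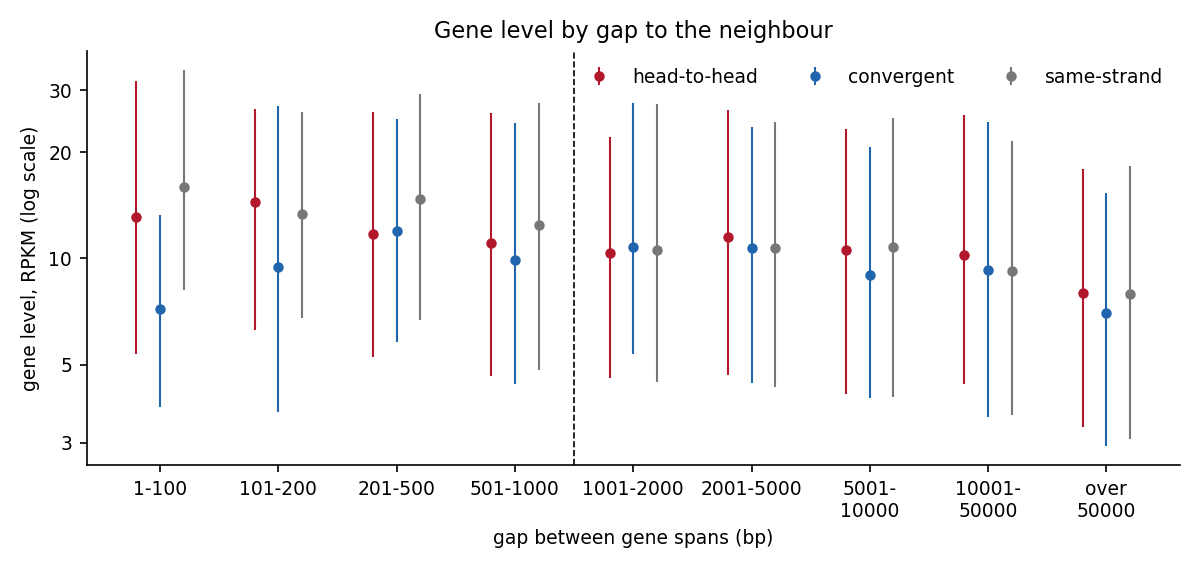
Median gene level (points) with quartiles (bars), in RPKM on a log axis, by gap between gene spans in bp for head-to-head, convergent and same-strand neighbours; the dashed line marks 1000 bp. At 1 to 100 bp the medians are 13.1 RPKM for head-to-head, 7.21 for convergent and 15.9 for same-strand genes, and the quartiles of all 3 orientations overlap.

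Head-to-head pairs were denser on smaller chromosomes. The 15 autosomes of 10 to 30 Mb carried 129 pairs, 0.478 per Mb, and the 8 larger ones 186 pairs, 0.244 per Mb. Gene density differed likewise, at 12.2 and 7.42 genes per Mb in the table, and members made up 7.83% and 6.59% of the genes. Chromosome 12 had 11.2% of its genes in head-to-head pairs, the highest share, with 15 pairs, and chromosome 22 had 3.66%, the lowest, with 3. The median level of members was 14.1 RPKM on the autosomes of 10 to 30 Mb and 12.7 RPKM on the larger ones, where genes outside such pairs had 10.3 and 8.78 RPKM.

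Members were also grouped by the gene on their far side. The 118 members with a 3′ neighbour within 1000 bp had a median of 12.9 RPKM (quartiles 4.92 and 24.1), and the other 512 had 12.9 RPKM (5.48 and 28.7). Those with a near 3′ neighbour were shorter, at 7142 bp of genomic span against 13614 bp. Set against genes of like exon length and number, they stood at 1.02 times and the other members at 1.22 times the median of their class. Among genes outside head-to-head pairs, those with a near 3′ neighbour had 11.0 RPKM and the others 9.04 RPKM. Against their classes these genes stood at 1.09 and 0.972 times the median, the opposite order to that of members.

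Members differed little between the libraries. The comparison sets library B over library A, as log2 of scaled counts with a prior count of 2. All 630 members had at least 10 reads in at least 1 library and entered it, with a median of -0.02 (quartiles -0.08 and 0.05), beside -0.01 (-0.07 and 0.07) for all genes on these autosomes. At 2-fold, 1 member (0.159%) was higher in library B and 0 were lower. Of the 11256 genes of the whole table under the same read limit, on any chromosome, 0.489% were higher and 0.267% lower. The 1 member is the weakest gene named above, with 18 and 2 reads. At 1.5-fold 6 members (0.952%) were higher and 3 (0.476%) lower, beside 1.63% and 0.808% of those 11256 genes. At 4-fold there were 0 members in either direction, beside 0.0888% of the 11256 genes higher and 0.0444% lower. Members had at least 100 reads more often than all genes on these autosomes. The part of read depth in these shares was not tested.

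Among members with at least 100 reads in the library where they were higher, the 2 highest and the 2 lowest ratios were modest. Members with fewer reads had wider ratios, from -0.97 to 1.58 on the log2 scale. Apl_7G0002380, the left partner of the second pair with a gap of 3 bp, with 9 exons, had 128 reads in library B and 34 in library A. Its ratio was 1.79 with a 95% interval of 1.22 to 2.70 from reads, or 1.04 to 3.27 where read pairs are taken as the unit. Its partner's ratio was 0.968, at 0.860 to 1.09 by read pairs. Apl_11G0004250 has 11 exons and spans 23975601 to 23979524 of chromosome 11 (plus strand). It had 124 reads in library B against 33 in library A, which gave a ratio of 1.79, at 1.21 to 2.71 by reads or 1.05 to 3.43 by read pairs. Its partner across 534 bp had a ratio of 1.11, at 0.997 to 1.25 by read pairs. Both genes thus stood next to a more abundant partner with a ratio near 1.

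Under the same read limit the lowest ratio was that of Apl_18G0000670, which has 10 exons and spans 4159459 to 4170855 of chromosome 18 (plus strand). It had 2.24 RPKM in library B and 3.14 RPKM in library A, a ratio of 0.712, at 0.591 to 0.860 by reads or 0.545 to 0.933 by read pairs. Its partner across 63 bp had a ratio of 1.08, at 0.984 to 1.20 by read pairs. Next came Apl_1G0002560, which has 12 exons and spans 28589368 to 28645825 of chromosome 1 (minus strand). It had 7.08 RPKM in library B and 9.36 RPKM in library A, a ratio of 0.756, at 0.649 to 0.881 by reads or 0.607 to 0.939 by read pairs. Its partner across 197 bp had a ratio of 1.02, at 0.899 to 1.16 by read pairs. The intervals cover counting error only and make no allowance for picking these 4 genes by the same ratios. None of the 4 has a structural copy in the table, judged by inner exon lengths.

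In no pair were both partners past 1.5-fold, in the same or in opposite directions, and in 9 pairs 1 partner was. At that rule 0.952% of members were higher and 0.476% lower, beside 1.63% and 0.808% of the 11256 genes compared in the whole table. So few members leave little room for a pair with both, and the absence of such pairs does not show that partners change separately. Over the 304 pairs with at least 100 reads in each partner, summed over the libraries, Spearman's rho of the log2 ratio between partners was 0.05, beside 0.06 in convergent and 0.06 in same-strand pairs. The ratios of both partners had the same sign in 172 of 304 pairs (56.6%), beside 51.0% of convergent, 48.8% of same-strand and 52.8% of all adjacent pairs. Among the matched pairs it was 55.6% of convergent and 48.0% of same-strand pairs. The difference between these shares was not tested. The median size of the difference between partners was 0.10 on the log2 scale in head-to-head pairs, 0.11 in convergent and 0.09 in same-strand pairs.

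The balance within a pair was nearly the same in both libraries, as it was in other adjacent pairs. The libraries differed little over all genes on these autosomes, with a median size of the log2 ratio of 0.072. Of the 11256 genes compared in the whole table, 0.489% were 2-fold higher in library B and 0.267% lower. Whether the libraries hold different organs, as labelled, was not tested, so constancy across organs is not shown. The same partner was the stronger in library B and library A in 308 of 315 pairs (97.8%), beside 98.5% of convergent, 98.1% of same-strand and 97.7% of all adjacent pairs. In the 7 other head-to-head pairs the mean levels were at most 1.28-fold apart. The log2 ratio of right over left partner differed between library B and library A by a median of 0.0023, with quartiles of -0.10 and 0.10 and extremes of -0.89 and 0.69, over the 304 pairs.

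**Figure D5:**
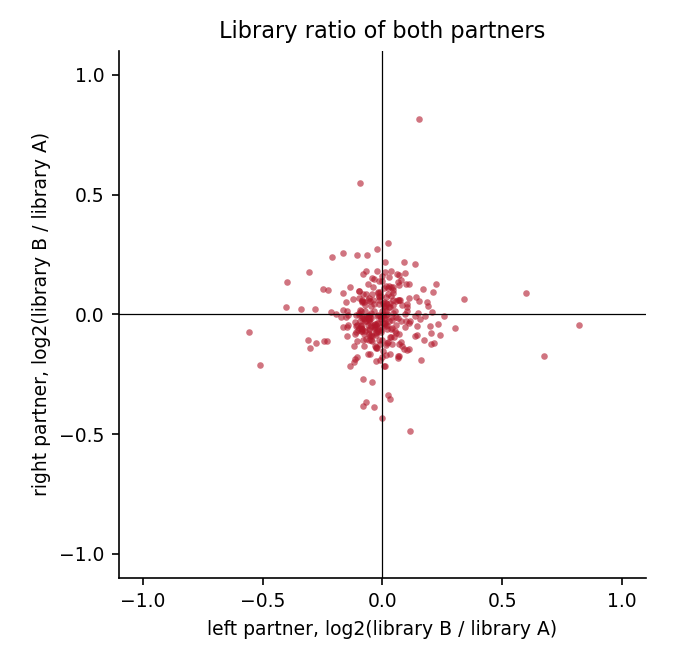
Library B over library A, as a log2 ratio, of the right partner (y axis) against that of the left partner (x axis) in the 304 head-to-head pairs with at least 100 reads in each partner. Most points lie near the origin, the few wide ones lie along the axes, where 1 partner has a ratio near 1, and Spearman's rho is 0.05.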

How the data were processed

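The authors deposited raw counts of reads per gene for each library, made with featureCounts 2.1.1 over exons in paired-end mode, per the file headers. The recorded command sets no option for strand, read pairs, multi-mapping or multi-overlapping reads, so mates count separately and strand is ignored. The submitters' processing notes also name HISAT2 and SAMtools, with no version. For the build and for trimming, the sources used here state nothing. Gene coordinates on the study's own assembly and exon lengths come from the same deposited files. The alignments named in their headers do not carry the library names of the labels, and the deposit's own link between file and library was used.

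Pairs were found, and matched on log2 exon length, exon number and gap, in Python 3.11.15 with pandas 2.3.3. Library sizes were multiplied by TMM factors (1.003 in library B, 0.997 in library A) from edgeR 4.0.16, run in R 4.3.3. Intervals at 95% for the ratios of named IDs are exact conditional binomial ones. A count of 0 allows 3 counts, 0.0715 CPM in library B and 0.150 CPM in library A. Steps were checked on simulated data. Alternatives covered scaling, pseudocount, gap limit, autosomes, matching and depth.

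Named pairs have the highest weaker or stronger partner, the widest or narrowest ratio, the smallest gap or a gap next to the limit. Named IDs have the 2 highest and the 2 lowest ratios of library B over library A among members with at least 100 reads in the library where they are higher. Pairs, lists and rules were chosen with earlier results of these data known.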

Additional observations from a re-analysis of the deposited data

How the results depend on the processing

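Over 226 alternatives, 212 values stayed within the main value's 95% interval over genes or pairs, or within 1.5 times a count, with no change to the opposite sign. For the 4 named IDs the interval was instead the one from reads of that ID. The intervals over genes or pairs are wide for small differences and treat genes and reused matches as independent. Some alternatives could not move a value, so the number that stayed overstates stability. The minimum of 10 reads and the limit to consecutive IDs each kept all 315 head-to-head pairs. The pseudocount does not enter the level of the stronger or the weaker partner. The minimum of 100 reads over both libraries does not enter the ratio of a named ID. A further 10 moved, and 4 small differences reversed. The log2 difference in ratio to convergent pairs, 0.20, was 0.53 on autosomes of 30 Mb or more, -0.088 on all autosomes and -0.068 relative to genes of like length and exon number. That to same-strand pairs, 0.10, was 0.50 on autosomes of 30 Mb or more and -0.030 with 1 RPKM added. The share of pairs with a weaker partner under 1 RPKM, whose alternatives were chosen after seeing the data, differed on autosomes of 30 Mb or more by -1.61 percentage points from matched convergent and by 2.15 from matched same-strand pairs. The difference to same-strand pairs was 0 in library B alone and 0 with gaps to 500 bp, against -0.95. The cause was not tested. Without scaling factors the median log2 of library B over library A was -0.0061. Members 2-fold higher in library B, 1 in all, became 0 with at least 100 reads, 0 with library B thinned to the depth of library A, 6 at 1.5-fold and 0 at 4-fold. Those lower, 0 in all, became 2 with library B thinned and 3 at 1.5-fold. No paired analysis was possible because there is only 1 library under each label. In library A, 2 members had fewer than 10 reads, which limits their ratios.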
